A study of Homo sapiens with 32 samples.

Results

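MOCOS was silenced with siRNA in unstressed C4-2B cells, a castration-resistant human prostate cancer line derived from LNCaP, and its transcriptome was set against that of the same cells given a control siRNA (siCTRL). The experiment comprised 8 of the 32 libraries of the study, 4 siMOCOS and 4 siCTRL, and was chosen by the column names that carry the C4-2B line, either siRNA and no thapsigargin. Thapsigargin (TG), a blocker of the calcium pump of the endoplasmic reticulum (ER), was given to other groups of the study, at a dose and for a time that the sources used here do not give. The siMOCOS group pools 2 siRNAs against MOCOS, which the labels tell apart and the knockdown columns do not. The siCTRL group is described as a vehicle-treated control. Cells of both groups were grown in RPMI medium with fetal bovine serum, and polyadenylated RNA was sequenced with a strand-specific library kit. The remaining libraries were C4-2B with TG and LNCaP with and without TG, in each case with either siRNA, 4 libraries a group.

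MOCOS encodes the molybdenum cofactor sulfurase. The enzyme adds a sulfur atom to the molybdenum cofactor, without which neither xanthine dehydrogenase (XDH) nor aldehyde oxidase (AOX1) is active. Xanthine dehydrogenase turns hypoxanthine into xanthine and xanthine into uric acid at the end of purine breakdown, whereas sulfite oxidase uses the cofactor without this step. Genes for DNA replication and for mitosis are transcribed in waves through the cell cycle: E2F factors drive many genes needed for replication, and the MuvB complex with B-MYB and FOXM1 drives many genes needed for mitosis.

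The deposited values are length-scaled estimated counts per gene, summing to 17.3M to 19M in the siMOCOS libraries and 12.4M to 18.4M in the siCTRL libraries. Levels are given as CPM, the count of a gene relative to the library total after scaling by trimmed means (TMM), and are compared between groups for 1 gene at a time. A gene is called where edgeR's quasi-likelihood test gave a Benjamini-Hochberg adjusted p under 0.05 over the 14127 genes tested. Of these, 1284 were called higher in siMOCOS (9.09%) and 1150 lower (8.14%), 17.2% in either direction, and the median log2 change over all tested genes was 0.0028. All siMOCOS libraries lay above all siCTRL libraries for 1632 genes (11.6%) and below them for 1592 (11.3%). All 12 luminal prostate markers passed the filter on low counts, and their summed level was 4920 to 6250 CPM in siMOCOS and 3650 to 4110 CPM in siCTRL. Basal markers summed to 0.862 to 1.37 CPM in siMOCOS and 0.407 to 1.29 CPM in siCTRL, with KRT5 at 0 in all 8 libraries. Neuroendocrine markers summed to 4.69 to 10.0 CPM in siMOCOS and 5.58 to 7.53 CPM in siCTRL, with CHGA at 0. Stromal markers summed to 10.8 to 13.4 CPM in siMOCOS and 5.82 to 10.4 CPM in siCTRL, with DCN at 0, and endothelial markers to 2.15 to 3.41 CPM in siMOCOS and 0.975 to 1.37 CPM in siCTRL, with PECAM1 at 0. Immune markers reached at most 0.11 CPM in siMOCOS and 0.177 CPM in siCTRL.

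MOCOS itself, at chr18:36187497-36272157 in GRCh38.p14, stood at 2.37, 2.97, 4.12 and 4.84 CPM in the siMOCOS libraries, against 34.1, 35.8, 31.1 and 31.1 CPM in the siCTRL libraries. The groups were far apart, and the knockdown was deepest in libraries 1 and 2. The log2 change was -3.21 (SE 0.221, adjusted p = 4.48e-08), which left 0.108 of the siCTRL level. XDH had 3.07, 4.17, 5.93 and 6.16 CPM in siMOCOS, against 2.09, 1.86, 2.1 and 1.6 CPM in siCTRL. It was higher in every knockdown library, most in libraries 3 and 4, with a log2 change of 1.33 (SE 0.206, adjusted p = 1.86e-04). AOX1 was barely expressed, at 1.08, 0.824, 0.384 and 0.102 CPM in siMOCOS and 0.174, 0, 0.135 and 0.152 CPM in siCTRL. The groups overlapped and the call (adjusted p = 0.0335) was lost in 8 alternatives, among them leaving out siMOCOS library 1 (adjusted p = 0.122), siMOCOS library 2 (0.0881) or any 1 siCTRL library (0.0543 without library 1, 0.0791 without library 2, 0.073 without library 3 and 0.0594 without library 4). None of the 5 cofactor synthesis genes was called, with log2 changes from -0.09 for MOCS2 to 0.05 for NFS1. Among the other molybdenum enzymes, sulfite oxidase (SUOX) averaged 83.6 ± 5.59 CPM in siMOCOS and 68.2 ± 7.23 CPM in siCTRL (SD, n = 4 each), without passing the test (adjusted p = 0.124).

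**Figure D1:**
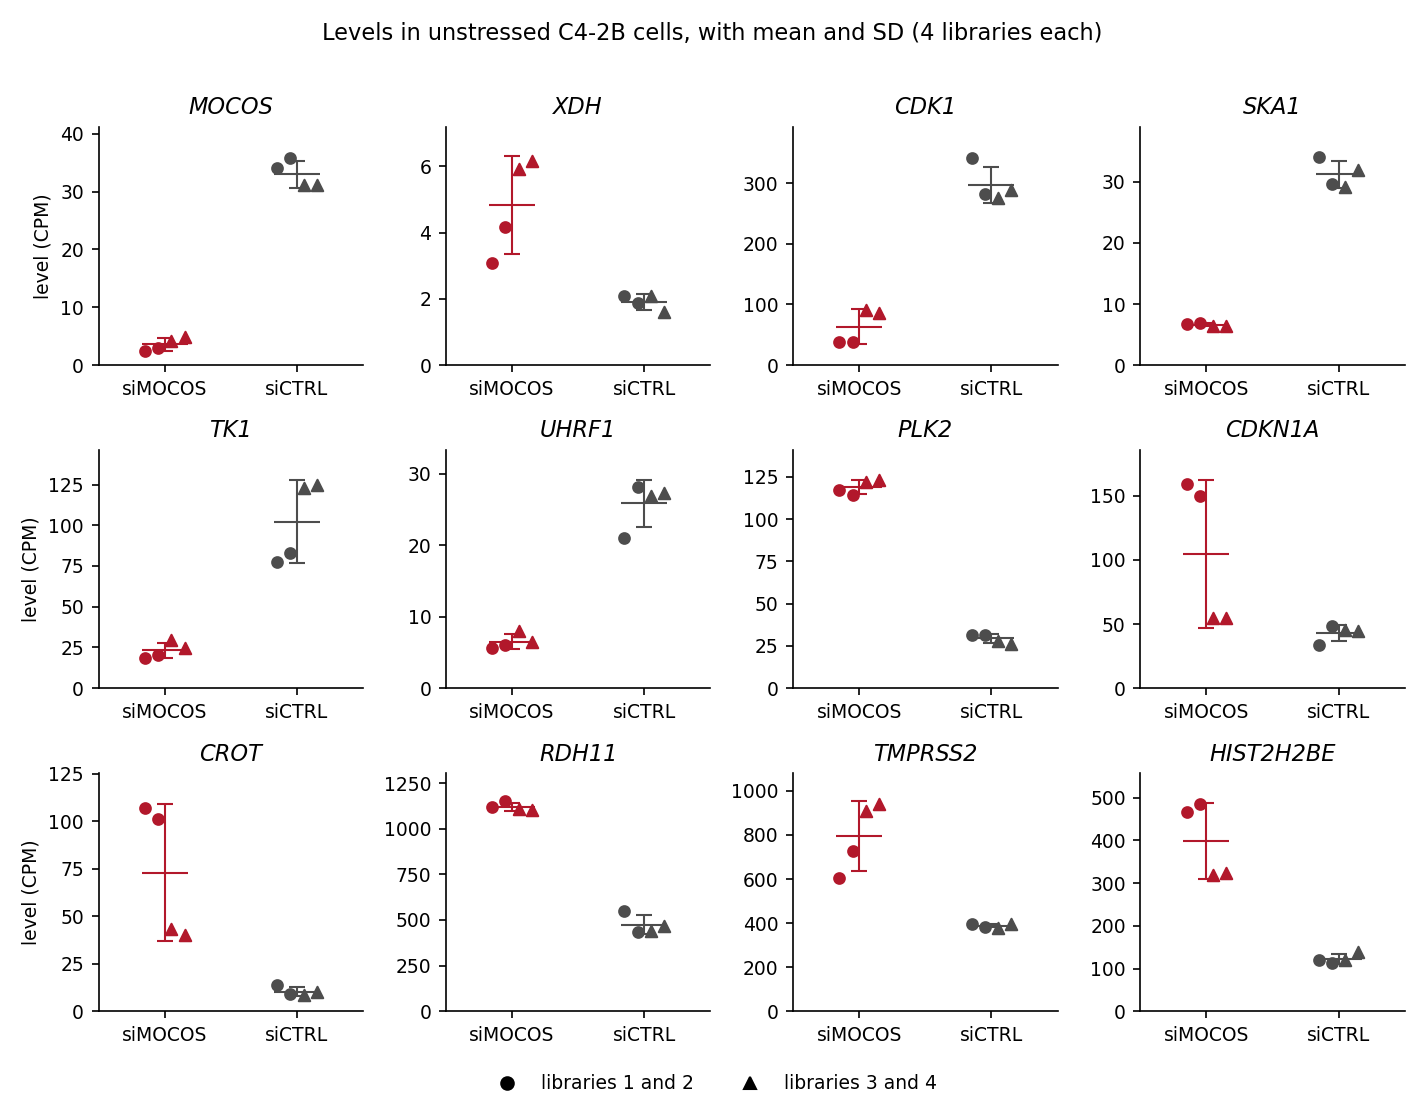
Levels of 12 genes in CPM (vertical axes, from 0) in the 4 siMOCOS and 4 siCTRL libraries of unstressed C4-2B cells, with mean and SD; circles are libraries 1 and 2 and triangles libraries 3 and 4. MOCOS, CDK1, SKA1, TK1 and UHRF1 lie lower in every siMOCOS library, the other 7 genes higher, and CROT and CDKN1A separate siMOCOS libraries 1 and 2 from 3 and 4.

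The replication and division machinery fell as a block. Over 8 lists of genes for replication, recombination repair and mitosis, 178 of 204 tested members were called lower and 1 higher, against 8.14% of all tested genes lower, and 178 lay below siCTRL in every siMOCOS library (11.3% of all genes). In bulk RNA, fewer cells in a phase of the cycle and less RNA per cell cannot be told apart. The fall was large: the median log2 change was -1.61 for origin licensing and firing, -1.22 for the replication fork, -1.41 for recombination and crosslink repair, -1.71 for mitotic regulators and -1.99 for mitotic kinesins. Leaving out any 1 of the 8 libraries left 21 to 22 of 26 origin genes, 24 to 26 of 28 fork genes, 33 to 35 of 37 mitotic regulators, 28 to 30 of 36 kinetochore genes and all 13 kinesins called lower.

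Origin licensing loads the MCM helicase onto DNA before S phase, and 11 of 15 licensing genes fell. ORC1, the largest subunit of the origin recognition complex, had 5.76, 5.49, 5.6 and 6.37 CPM in siMOCOS, against 25.3, 27.9, 24.8 and 20.1 CPM in siCTRL. Its siMOCOS values sat within 1 CPM of each other and below every siCTRL library (log2 change -2.08, SE 0.139). The helicase subunit gene MCM7 had 81.8, 90.3, 110 and 110 CPM in siMOCOS, against 287, 296, 296 and 295 CPM in siCTRL (log2 change -1.58, SE 0.115). ORC2, ORC3, ORC4 and ORC5 were not called, with log2 changes from -0.35 to 0.32. All 11 firing genes fell. TICRR, which helps to load CDC45 onto the helicase, averaged 7.86 ± 1.05 CPM in siMOCOS and 34.2 ± 4.48 CPM in siCTRL (SD, n = 4 each). At the fork, all 10 genes for lagging strand processing, fork protection and chromatin assembly fell. CLSPN (claspin, a mediator of the checkpoint at stalled forks) had 21.3, 18.2, 15.6 and 15.8 CPM in siMOCOS, against 92.7, 105, 77.0 and 70.5 CPM in siCTRL (log2 change -2.28, SE 0.223). FEN1, the flap nuclease of the lagging strand, averaged 37.1 ± 8.05 CPM in siMOCOS and 145 ± 5.55 CPM in siCTRL. POLD2 and RPA2 were the 2 fork genes not called, with log2 changes of -0.21 and -0.33.

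Repair genes followed: 12 of 13 recombination genes and 10 of 12 Fanconi anaemia genes were called lower. BLM, the helicase lost in Bloom syndrome, had 2.8, 3.57, 3.18 and 3.16 CPM in siMOCOS, against 15.1, 20.7, 12 and 12.4 CPM in siCTRL (log2 change -2.24, SE 0.247). BRCA1, which directs breaks into recombination, averaged 29.1 ± 5.95 CPM in siMOCOS and 106 ± 21.9 CPM in siCTRL, and EXO1, a nuclease that resects broken ends, averaged 10.8 ± 1.91 CPM in siMOCOS and 38 ± 3.19 CPM in siCTRL (SD, n = 4 each). FANCF, a subunit of the Fanconi core complex, was the 1 member called higher, at 35.1, 33.4, 36.2 and 38.1 CPM in siMOCOS, against 23.0, 23.4, 24.4 and 23.3 CPM in siCTRL. Its groups did not overlap, and the log2 change was 0.60 (SE 0.121, adjusted p = 0.00208).

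Among mitotic regulators, 35 of 37 fell, including all 11 cyclins, CDKs and phosphatases and all 13 mitotic kinases and passenger proteins. CDK1, the kinase that drives entry into mitosis, had 38.7, 38.8, 90.1 and 85.6 CPM in siMOCOS, against 342, 282, 276 and 289 CPM in siCTRL. Every siMOCOS library was lower, libraries 1 and 2 most (log2 change -2.23, SE 0.435, adjusted p = 0.00161). CDC25C, a phosphatase that activates CDK1, had 4.63, 4.01, 4.06 and 3.92 CPM in siMOCOS, against 25, 18.2, 19.0 and 19.0 CPM in siCTRL. AURKB, the kinase of the chromosomal passenger complex, averaged 5.34 ± 0.479 CPM in siMOCOS and 26.1 ± 5.71 CPM in siCTRL, and its partner INCENP 19.0 ± 9.39 CPM in siMOCOS and 88.0 ± 10.2 CPM in siCTRL (SD, n = 4 each). MAD1L1, a spindle checkpoint protein, and FZR1, an activator of the anaphase-promoting complex, were not called (log2 changes -0.68 and -0.20).

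All 13 mitotic kinesins fell. KIF20A, a motor of the central spindle, had 18.1, 17.4, 31.3 and 33.6 CPM in siMOCOS, against 151, 134, 126 and 137 CPM in siCTRL (log2 change -2.45, SE 0.252), the greatest fall after LOC102724951 and MOCOS among genes of at least 5 CPM. Of 36 kinetochore and centromere genes 30 were called lower. SKA1, which couples kinetochores to microtubules, had 6.68, 6.92, 6.42 and 6.42 CPM in siMOCOS, against 34.1, 29.6, 29.2 and 32 CPM in siCTRL. The spread within groups was small beside the gap (log2 change -2.24, SE 0.118, adjusted p = 3.05e-09). CENPC, CENPT, MIS12, NSL1, PMF1 and STRA13 (CENPX) were the 6 not called, with log2 changes from -0.30 to 0.26. All 8 condensin genes were called lower, against 5 of 12 genes of cohesin and its regulators. NCAPG of condensin averaged 14.9 ± 1.85 CPM in siMOCOS and 59.6 ± 8.16 CPM in siCTRL (SD, n = 4 each), whereas the cohesin ring genes SMC1A and STAG2 had log2 changes of -0.24 and -0.29 and were not called. Of 19 spindle and cytokinesis genes 17 fell, among them PRC1, which bundles microtubules of the central spindle, at 58.5 ± 7.61 CPM in siMOCOS and 193 ± 21.3 CPM in siCTRL.

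**Figure D2:**
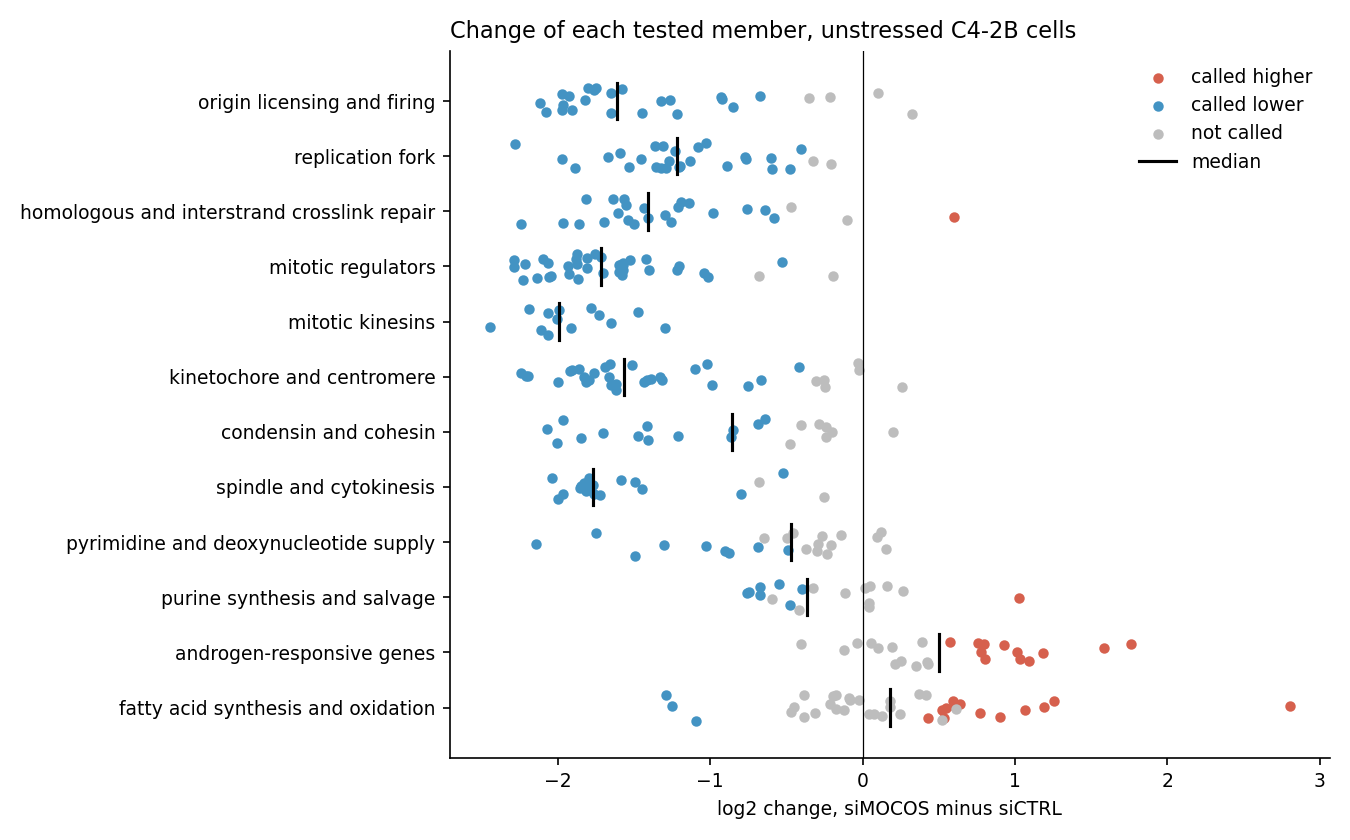
Log2 change, siMOCOS minus siCTRL, of each tested member of 12 gene lists in unstressed C4-2B cells (horizontal axis); each point is a gene, coloured by its call, and black bars mark list medians. Points of the 8 replication, repair and mitosis lists lie mostly below 0, with 178 of 204 called lower and 1 higher, and the median of the androgen-responsive genes is 0.50.

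Promoters of the falling genes are shown because the mitosis and replication lists differed in the motifs they hold. The 3 mitosis and 3 replication genes called lower with the smallest adjusted p and an entry are printed from RefSeq (GRCh38.p14), from 250 bases before to 50 bases after the annotated start, 300 bases each. They lie at chr18:50374796-50375095 on the plus strand for SKA1, chr6:33391573-33391872 on the plus strand for KIFC1, chr10:56361210-56361509 on the minus strand for ZWINT, chr21:36385142-36385441 on the plus strand for CHAF1B, chr11:61792661-61792960 on the plus strand for FEN1 and chr1:52404374-52404673 on the minus strand for ORC1. Sequences run 5′ to 3′ along the gene's strand, and capitals mark the motifs searched on both strands: the cell cycle homology region (CHR) as TTTGAA or TTCGAA, the CCAAT box as CCAAT, and the E2F site as TTGGCGC or TTCGCGC or TTCCCGC or TTGCCGC. SKA1 and ZWINT belong to the kinetochore, KIFC1 is a mitotic kinesin, CHAF1B is a chromatin assembly factor, FEN1 a flap nuclease and ORC1 an origin recognition subunit.
SKA1: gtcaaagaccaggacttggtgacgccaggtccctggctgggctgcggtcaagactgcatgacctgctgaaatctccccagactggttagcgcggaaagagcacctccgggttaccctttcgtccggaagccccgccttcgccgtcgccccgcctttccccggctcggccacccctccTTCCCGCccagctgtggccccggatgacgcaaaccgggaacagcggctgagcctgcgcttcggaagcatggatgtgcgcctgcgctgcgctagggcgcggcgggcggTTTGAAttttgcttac
KIFC1: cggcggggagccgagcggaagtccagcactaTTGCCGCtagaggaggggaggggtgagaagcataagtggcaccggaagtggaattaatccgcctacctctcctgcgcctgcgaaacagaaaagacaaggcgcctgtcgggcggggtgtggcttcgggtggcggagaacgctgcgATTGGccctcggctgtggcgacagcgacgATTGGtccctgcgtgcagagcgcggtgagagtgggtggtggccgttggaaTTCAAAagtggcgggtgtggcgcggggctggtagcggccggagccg
ZWINT: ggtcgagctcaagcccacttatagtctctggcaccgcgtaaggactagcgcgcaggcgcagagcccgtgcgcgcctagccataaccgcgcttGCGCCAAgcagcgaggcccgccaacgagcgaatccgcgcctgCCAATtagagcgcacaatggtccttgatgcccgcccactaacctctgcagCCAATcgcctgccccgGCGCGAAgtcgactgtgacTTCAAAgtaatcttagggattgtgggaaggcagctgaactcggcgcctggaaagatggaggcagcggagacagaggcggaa
CHAF1B: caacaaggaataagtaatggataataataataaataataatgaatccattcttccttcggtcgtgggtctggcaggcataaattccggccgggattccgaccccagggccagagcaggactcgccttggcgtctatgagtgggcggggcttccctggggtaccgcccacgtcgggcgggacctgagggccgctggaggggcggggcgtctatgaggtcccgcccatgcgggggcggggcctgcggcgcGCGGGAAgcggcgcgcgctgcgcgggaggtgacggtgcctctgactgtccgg
FEN1: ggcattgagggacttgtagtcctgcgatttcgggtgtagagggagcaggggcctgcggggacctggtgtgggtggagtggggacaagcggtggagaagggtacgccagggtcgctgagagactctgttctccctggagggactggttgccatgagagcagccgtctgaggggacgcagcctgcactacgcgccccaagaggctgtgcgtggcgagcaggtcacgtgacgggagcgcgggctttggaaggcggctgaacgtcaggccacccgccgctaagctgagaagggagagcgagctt
ORC1: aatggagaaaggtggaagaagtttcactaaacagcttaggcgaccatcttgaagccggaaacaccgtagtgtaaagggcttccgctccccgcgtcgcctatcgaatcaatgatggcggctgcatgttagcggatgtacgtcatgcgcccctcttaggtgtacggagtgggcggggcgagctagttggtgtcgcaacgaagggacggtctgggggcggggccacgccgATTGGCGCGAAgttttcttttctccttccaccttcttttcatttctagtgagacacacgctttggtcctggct

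The SKA1 promoter held 1 CHR and 1 E2F match, KIFC1 held 1 CHR, 2 CCAAT and 1 E2F match, and ZWINT held 1 CHR, 2 CCAAT and 2 E2F matches. CHAF1B held 1 E2F match, FEN1 none, and ORC1 1 CCAAT and 2 E2F matches that overlap each other. Of the 108 members of the 5 mitosis lists called lower, 87 had a promoter entry, and 65.5% of those held a CHR, against 16.6% of all 27305 promoters in the table. A CCAAT box was in 65.5% of them, against 35.7% of all promoters, and an E2F match in 34.5%, against 13.1%. All promoters include those of genes that were not tested. Over the 10905 tested genes with an entry, 77.2% of those tested, an E2F match was in 20.7%. Against these genes the E2F excess of the mitosis lists was smaller. Their CHR share was lower than that of all promoters, and their CCAAT share slightly higher. Of all 1150 genes called lower, 941 had an entry, with a CHR in 23.1%, a CCAAT box in 45.7% and an E2F match in 33.8%, so that the E2F share of the mitosis lists was near that of all genes called lower. Of the 48 members of the 2 replication lists called lower, 41 had an entry, with an E2F match in 73.2%, a CCAAT box in 56.1% and a CHR in 7.32%, against the same shares of all promoters and of all genes called lower. The lists were chosen for their function, and a match is a description of letters only.

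Enzymes that supply deoxynucleotides fell with replication, and those that make or break down purines moved less. Of 12 deoxynucleotide genes 8 were called lower, against 8.14% of all genes. TK1, thymidine kinase, had 18.3, 20.3, 29.3 and 24.6 CPM in siMOCOS, against 77.5, 83.1, 123 and 125 CPM in siCTRL (log2 change -2.14, SE 0.212, adjusted p = 1.57e-06). TYMS, thymidylate synthase, had 22.5, 23.6, 23.4 and 23.9 CPM in siMOCOS, against 84.4, 65.9, 83.1 and 80.8 CPM in siCTRL. All 4 siMOCOS libraries were nearly equal and below siCTRL (log2 change -1.75, SE 0.132). RRM1, the large subunit of ribonucleotide reductase, averaged 88.1 ± 18.1 CPM in siMOCOS and 217 ± 24.5 CPM in siCTRL, and the p53-linked small subunit RRM2B was not called (log2 change 0.15). In pyrimidine synthesis 1 of 5 genes was called, UMPS at a log2 change of -0.49, against 17.2% of all genes in either direction.

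Of 18 genes for purine synthesis and salvage, 7 were called lower and 1 higher, against 8.14% lower and 9.09% higher over all genes. The count called lower was less stable: it was 4 without siCTRL library 3 and 4 without siMOCOS library 2. ADSSL1, the 1 called higher, averaged 3.47 CPM in siMOCOS and 1.7 CPM in siCTRL. Its call was lost in 8 alternatives (adjusted p up to 0.323). HPRT1, which salvages hypoxanthine and guanine, had 28.8, 28.4, 30.5 and 28.7 CPM in siMOCOS, against 59.4, 37.0, 49.3 and 48.9 CPM in siCTRL. It was lower in every siMOCOS library, with siCTRL library 2 the nearest (log2 change -0.74, SE 0.15, adjusted p = 0.00205). IMPDH2, the first enzyme from IMP towards guanine nucleotides, averaged 222 ± 9.22 CPM in siMOCOS and 353 ± 43.2 CPM in siCTRL (adjusted p = 0.00209). PPAT, which commits to purine synthesis, had a log2 change of 0.04 and was not called. Among 9 tested genes of purine breakdown, 1 was called lower and none higher, against 8.14% lower and 9.09% higher over all genes. The called gene was PNP, purine nucleoside phosphorylase, which feeds hypoxanthine towards XDH. PNP had 45.0, 50.0, 47.7 and 45.2 CPM in siMOCOS, against 73.8, 58.9, 81.0 and 81.2 CPM in siCTRL (log2 change -0.65, adjusted p = 0.0487). The groups did not overlap, and the call was lost in 9 alternatives, with adjusted p up to 0.184, and without any 1 library other than siCTRL 2 (0.0777 to 0.129).

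Called genes of DNA methylation and Polycomb were mostly lower, and called replication-dependent histone genes mostly higher. UHRF1, which brings DNMT1 to newly replicated DNA, had 5.6, 6.04, 8.02 and 6.42 CPM in siMOCOS, against 21, 28.2, 26.9 and 27.3 CPM in siCTRL (log2 change -1.99, adjusted p = 3.4e-07). In all, 7 of 12 DNA methylation and Polycomb genes were called lower and 1 higher, against 8.14% lower and 9.09% higher over all genes. HELLS, a chromatin remodeller needed for DNA methylation, averaged 9.7 ± 0.673 CPM in siMOCOS and 37.2 ± 5.84 CPM in siCTRL, and the Polycomb methyltransferase gene EZH2 36.8 ± 2.57 CPM in siMOCOS and 74.7 ± 9.65 CPM in siCTRL (SD, n = 4 each). Of 54 replication-dependent histone genes, 25 passed the filter on low counts. Of these 25, 7 were called higher and 1 lower, against 9.09% higher and 8.14% lower over all genes. HIST1H4C, the 1 called lower, lost its call in 5 alternatives (adjusted p up to 0.108). Transcripts of replication-dependent histone genes normally lack a poly(A) tail, and the libraries captured polyadenylated RNA. HIST2H2BE (H2BC21, an H2B gene) had 467, 485, 319 and 324 CPM in siMOCOS, against 119, 113, 119 and 139 CPM in siCTRL (log2 change 1.70, SE 0.213, adjusted p = 1.93e-05). Libraries 1 and 2 were highest. Of 10 histone variants 3 fell, against 8.14% of all genes. The 3 included H2AFX, the variant phosphorylated at DNA breaks, at 10.3 ± 2.75 CPM in siMOCOS and 36.8 ± 9.88 CPM in siCTRL.

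In the control of G1, 15 of 32 genes were called lower and 1 higher, against 8.14% lower and 9.09% higher over all genes. E2F1 had 16.9, 17.8, 17.2 and 16 CPM in siMOCOS, against 58.4, 39.1, 54.4 and 64.6 CPM in siCTRL (log2 change -1.67, SE 0.179, adjusted p = 3.55e-06). The activators E2F1 and E2F2 and the late repressors E2F7 and E2F8 fell, and E2F3, E2F4, E2F5 and E2F6 were not called, with log2 changes from -0.22 to 0.33. CCND1 (cyclin D1) had 488, 476, 171 and 171 CPM in siMOCOS, against 275, 331, 245 and 253 CPM in siCTRL. It lay above siCTRL in libraries 1 and 2 and below in libraries 3 and 4, and was not called (adjusted p = 0.70). CDKN1A, the p21 inhibitor of CDKs, had 159, 150, 54.3 and 54.5 CPM in siMOCOS, against 33.4, 48.2, 45.2 and 44.7 CPM in siCTRL. Every siMOCOS library was higher, but libraries 3 and 4 by little. Its call (log2 change 1.29, adjusted p = 0.0182) was lost with libraries 3 and 4 alone (adjusted p = 0.558), without siMOCOS library 1 (0.075) or 2 (0.0683), without siCTRL library 1 (0.0562) and by limma voom (0.0524).

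Of 29 p53 target genes, 8 were called higher (27.6% against 9.09% of all genes) and none lower. PLK2, a polo-like kinase, had 117, 114, 122 and 123 CPM in siMOCOS, against 31.7, 31.6, 28.0 and 26.2 CPM in siCTRL. The 2 groups were tight and far apart (log2 change 2.02, SE 0.105, adjusted p = 3.05e-09). BTG2, an antiproliferative gene, had 108, 113, 67.9 and 69.3 CPM in siMOCOS, against 47.8, 43.3, 41.4 and 43.0 CPM in siCTRL (log2 change 1.03, SE 0.152, adjusted p = 1.17e-04). MDM2, the ubiquitin ligase of p53, had 103, 107, 178 and 166 CPM in siMOCOS, against 210, 196, 166 and 143 CPM in siCTRL, and overlapped (adjusted p = 0.508). Of the 10 death genes among p53 targets 2 were called higher. Of 26 BCL2 family and caspase genes 1 was called higher and 1 lower, against 9.09% higher and 8.14% lower over all genes.

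**Figure D3:**
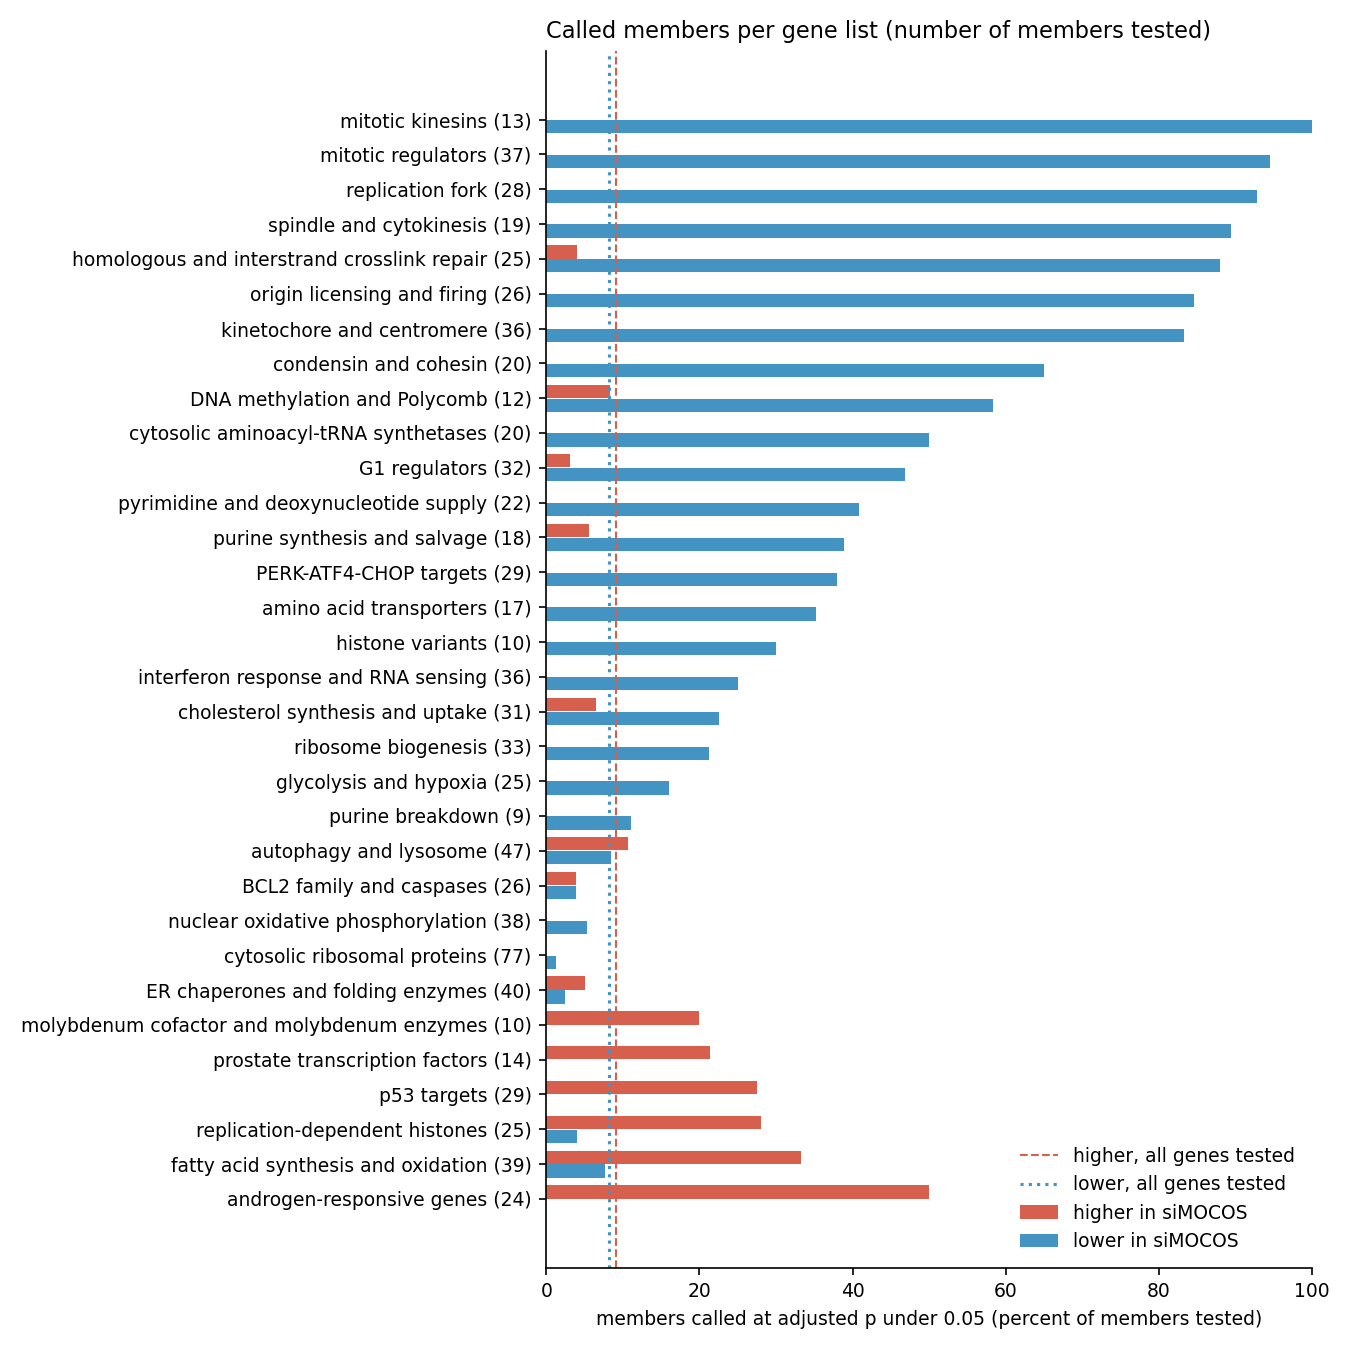
Percent of tested members called higher (red) or lower (blue) in siMOCOS against siCTRL, adjusted p under 0.05, for 32 gene lists with the number of members tested in brackets; broken lines mark the shares over all 14127 tested genes, 9.09% higher and 8.14% lower. All 13 mitotic kinesins were called lower and 12 of 24 androgen-responsive genes higher.

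The luminal prostate programme rose in part. Of 24 androgen-responsive genes 12 were called higher (50.0%) and none lower, with a median log2 change of 0.50. Of 14 prostate transcription factors 3 were called higher and none lower. The shares over all genes were 9.09% higher and 8.14% lower. FOXA1, 1 of the 3 transcription factors, lost its call in 3 alternatives (adjusted p up to 0.0976). TMPRSS2, a membrane protease, had 604, 728, 911 and 940 CPM in siMOCOS, against 397, 383, 380 and 396 CPM in siCTRL (log2 change 1.03, SE 0.136, adjusted p = 3.43e-05). It was higher in every siMOCOS library, most in libraries 3 and 4. MAF, a transcription factor, averaged 153 ± 25.1 CPM in siMOCOS and 71.8 ± 3.75 CPM in siCTRL, and AZGP1, a secreted glycoprotein, 295 ± 20 CPM in siMOCOS and 169 ± 9.36 CPM in siCTRL (SD, n = 4 each). KLK3, which encodes prostate-specific antigen, had 87.6, 93.5, 145 and 166 CPM in siMOCOS, against 108, 83.9, 134 and 132 CPM in siCTRL. KLK3 and KLK2 overlapped between groups and were not called (adjusted p = 0.782 and 0.686). The basal markers stood at or near 0 in both groups, as given above.

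Of 17 tested enzymes of steroid and retinol metabolism 3 were called higher and 1 lower, against 9.09% higher and 8.14% lower over all genes. AKR1C3, 1 of the 3, averaged 1.86 CPM in siMOCOS and 0.556 CPM in siCTRL, and its groups overlapped. The AKR1C3 call was lost in 7 alternatives, with adjusted p up to 0.586. DHRS7, another of the 3, had a log2 change of 0.61 and lost its call in 2 alternatives (adjusted p up to 0.0929). RDH11, a retinal reductase, had 1120, 1150, 1110 and 1100 CPM in siMOCOS, against 548, 435, 441 and 468 CPM in siCTRL (log2 change 1.24, SE 0.0993, adjusted p = 1.66e-07). UGT2B15, which glucuronidates androgens, fell to 2.03 ± 0.20 CPM in siMOCOS, against 5.44 ± 1.37 CPM in siCTRL (adjusted p = 2.86e-04). Reads of UGT2B15 and its near-identical relative UGT2B17 may be split between them. CYP11A1, which was not in this list, encodes the enzyme that cleaves the cholesterol side chain at the start of steroid synthesis. CYP11A1 had 10.9, 13.7, 21.4 and 19.0 CPM in siMOCOS, against 4.77, 3.72, 3.52 and 3.27 CPM in siCTRL, without overlap (log2 change 2.08, SE 0.209, adjusted p = 1.77e-06).

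Genes of fatty acid oxidation were called in 1 direction and those of synthesis in both. In peroxisomal fatty acid oxidation 5 of 13 genes were called higher and none lower, and in mitochondrial oxidation 5 of 13 and none. In fatty acid synthesis 3 of 13 were called higher and 3 lower. The shares over all genes were 9.09% higher and 8.14% lower. CROT, a peroxisomal carnitine acyltransferase, had 107, 101, 43.5 and 40.3 CPM in siMOCOS, against 13.6, 8.95, 8.73 and 10.3 CPM in siCTRL. It was one of the greatest rises, higher in every siMOCOS library and most in libraries 1 and 2 (log2 change 2.80, SE 0.344, adjusted p = 1.53e-05). SCP2, the sterol carrier protein with peroxisomal thiolase activity, had 218, 209, 191 and 181 CPM in siMOCOS, against 105, 67.6, 86.0 and 90.1 CPM in siCTRL (log2 change 1.19, SE 0.135). FADS1, a fatty acid desaturase, averaged 166 ± 27.1 CPM in siMOCOS and 395 ± 49.0 CPM in siCTRL, and the elongase gene ELOVL6 36.7 ± 4.59 CPM in siMOCOS and 78.3 ± 9.64 CPM in siCTRL (SD, n = 4 each). FASN, fatty acid synthase, had 269, 361, 467 and 358 CPM in siMOCOS, against 512, 1040, 1090 and 909 CPM in siCTRL. The groups did not overlap (log2 change -1.29, SE 0.306, adjusted p = 0.00693), and with knockdown libraries 3 and 4 alone FASN was not called (adjusted p = 0.0983). Of 31 cholesterol genes 7 were called lower and 2 higher, against 8.14% lower and 9.09% higher over all genes.

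A part of the stress-response targets, amino acid transporters and tRNA synthetases was called lower, and for the stress-response targets the count depended on the pair of knockdown libraries. Of 29 targets of the PERK-ATF4-CHOP branch of the stress response 11 were called lower and none higher. Of 17 amino acid transporters the counts were 6 and none, and of 20 cytosolic aminoacyl-tRNA synthetases 10 and none. Over all genes, 8.14% were called lower and 9.09% higher. The mean log2 difference of the PERK-ATF4-CHOP targets from their siCTRL mean was -0.72, -0.77, -0.22 and -0.17 in siMOCOS libraries 1 to 4. The count of these targets called lower was 20 with knockdown libraries 1 and 2 alone and 3 with libraries 3 and 4 alone. It was 6 without siMOCOS library 1, 7 without siMOCOS library 2, 6 without siCTRL library 4, and 18 with the replicate number as a block. TRIB3, a pseudokinase that ATF4 and CHOP induce, had 15.6, 13.6, 15.5 and 14.3 CPM in siMOCOS, against 24.0, 27.3, 29 and 33.5 CPM in siCTRL, without overlap (log2 change -0.95, SE 0.142, adjusted p = 1.37e-04). SLC7A5, the large neutral amino acid transporter, had 64.7, 70.1, 79.1 and 71.4 CPM in siMOCOS, against 111, 194, 167 and 162 CPM in siCTRL (log2 change -1.15, SE 0.176, adjusted p = 1.66e-04). MARS, methionyl-tRNA synthetase, averaged 132 ± 22.7 CPM in siMOCOS and 202 ± 14.3 CPM in siCTRL (SD, n = 4 each). ATF4 and DDIT3 (CHOP) themselves were not called (log2 changes -0.44 and -0.37, adjusted p = 0.202 and 0.438).

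Of 40 ER chaperones and folding enzymes 2 were called higher and 1 lower, against 9.09% higher and 8.14% lower over all genes. The 2 were AGR2 and PDIA5. AGR2 was barely expressed, at 1.18 CPM in siMOCOS and 0.344 CPM in siCTRL, and PDIA5 lost its call in 3 alternatives (adjusted p up to 0.164). The mean log2 difference of the 40 genes was -0.22 and -0.18 in siMOCOS libraries 1 and 2 and 0.12 and 0.18 in libraries 3 and 4. HSPA5 (BiP), the 1 member called lower, had a log2 change of -0.54 (adjusted p = 0.0295) and lost its call in 8 alternatives, without any 1 library other than siCTRL 2 and siMOCOS 4 (adjusted p 0.052 to 0.0822).

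**Figure D4:**
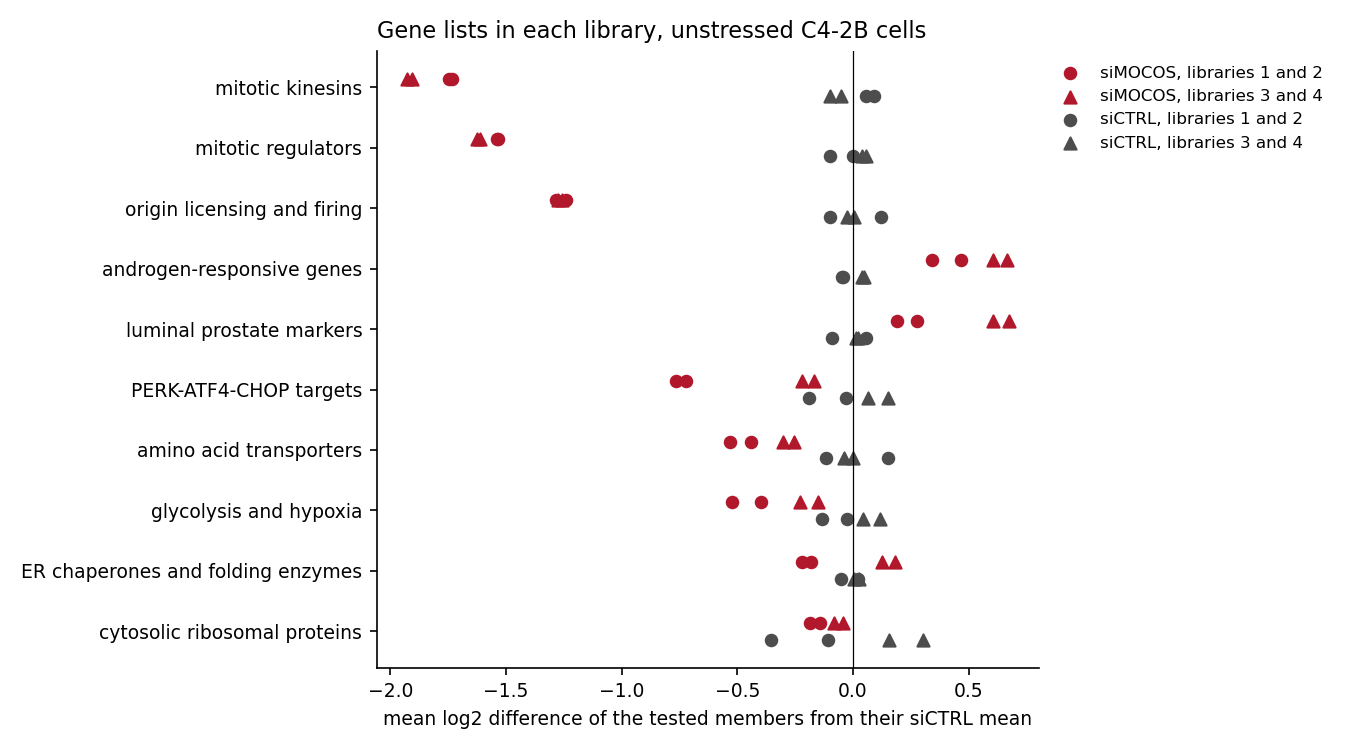
Mean log2 difference of the tested members of 10 gene lists from their mean in the siCTRL libraries (horizontal axis), in each siMOCOS (red) and siCTRL (grey) library; circles are libraries 1 and 2, triangles libraries 3 and 4. The mitotic regulators lie between -1.54 and -1.63 in all 4 siMOCOS libraries, the PERK-ATF4-CHOP targets at -0.72 and -0.77 in libraries 1 and 2 and at -0.22 and -0.17 in libraries 3 and 4.

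Interferon-induced effectors fell in part, with 9 of 25 called lower and none higher, against 8.14% lower and 9.09% higher over all genes. None of 11 RNA sensors and signalling genes was called. OAS3, which makes the oligoadenylate that activates RNase L, had 20.7, 21.5, 7.63 and 8.1 CPM in siMOCOS, against 41.8, 69.4, 48.7 and 44.8 CPM in siCTRL (log2 change -1.82, SE 0.383, adjusted p = 0.00292). USP18, a negative regulator of interferon signalling, had 12.8, 11.4, 8.13 and 8.25 CPM in siMOCOS, against 19.6, 20, 19.4 and 20.6 CPM in siCTRL, without overlap. Of 10 polyamine genes 1 rose and 1 fell, close to the shares over all genes (9.09% higher, 8.14% lower). SAT1, the acetyltransferase that starts polyamine breakdown, averaged 107 ± 7.38 CPM in siMOCOS and 45.8 ± 5.18 CPM in siCTRL (adjusted p = 2.03e-06). ODC1, which starts polyamine synthesis, averaged 448 ± 57.2 CPM in siMOCOS and 663 ± 68.5 CPM in siCTRL (adjusted p = 0.0153), and with knockdown libraries 1 and 2 alone it was not called (adjusted p = 0.123).

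Few ribosomal protein and oxidative phosphorylation genes were called. Among 77 ribosomal protein genes 1 was called lower and none higher, and among 38 nuclear genes of oxidative phosphorylation 2 lower and none higher, against 8.14% lower over all genes. Those counts were 0 to 2 and 0 to 2 as single libraries were left out, and 6 and 5 with the replicate number as a block. NRF2 targets had 1 of 19 called higher, and heat shock proteins 1 of 19 higher and 2 lower, against 9.09% higher and 8.14% lower over all genes. HSP90AA1, the inducible cytosolic HSP90, averaged 2320 ± 128 CPM in siMOCOS and 3650 ± 549 CPM in siCTRL (adjusted p = 0.00163). Of 25 glycolysis and hypoxia genes 4 were called lower, among them LDHA, lactate dehydrogenase A, at 739 ± 71.6 CPM in siMOCOS and 1110 ± 137 CPM in siCTRL (adjusted p = 0.00424).

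Other large rises were in genes outside these lists. RANBP3L, a nuclear export factor for SMADs in mouse, had 12.4, 13.1, 20.6 and 19.9 CPM in siMOCOS, against 2.73, 2.75, 2.03 and 1.82 CPM in siCTRL (log2 change 2.82, SE 0.31, adjusted p = 4.75e-06). SMIM15, a small integral membrane protein, had 87.2, 81.6, 63.6 and 60.9 CPM in siMOCOS, against 23.2, 16.8, 19.0 and 18.9 CPM in siCTRL. Both were higher in all 4 siMOCOS libraries without overlap. SLC15A2, a peptide transporter, had 14.8, 15.6, 4.61 and 3.82 CPM in siMOCOS, against 1.98, 2.57, 0.677 and 2.05 CPM in siCTRL, and was not called with libraries 3 and 4 alone (adjusted p = 0.0769). RLN1, a relaxin, averaged 8.39 ± 3.96 CPM in siMOCOS and 1.96 ± 0.564 CPM in siCTRL, but its reads may be split with the near-identical RLN2. FAM72C, a member of a family of near-identical copies, fell to 11.1 ± 1.47 CPM in siMOCOS, against 58.0 ± 3.85 CPM in siCTRL, with the same limit. LOC102724951 had 0.916, 1.04, 0.165 and 0 CPM in siMOCOS, against 15.5, 1.33, 17.9 and 18.9 CPM in siCTRL, where library 2 stood far below the other 3.

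Knockdown libraries resembled each other in pairs. Deviations from the group mean over all tested genes correlated at 0.688 between siMOCOS libraries 1 and 2 and 0.645 between 3 and 4, and at -0.812 to -0.863 across the pairs, as a description over genes that share their libraries. Among the siCTRL libraries, 3 and 4 correlated at 0.399 and 1 and 2 at -0.152, with -0.488 to -0.625 across these pairs. Centring on the mean of 4 libraries itself pulls such values below 0. Whether the pairs are the 2 siRNAs was not tested, since the columns do not name them. Deviations also moved with the GC content of genes, at r of -0.418, -0.285, 0.382 and 0.317 in siMOCOS libraries 1 to 4 and -0.643, -0.164, 0.444 and 0.534 in siCTRL libraries 1 to 4, whereas the log2 change itself had r of -0.049 with GC content over 12671 genes. With knockdown libraries 1 and 2 alone, 1682 genes were called higher and 1493 lower, and with libraries 3 and 4 alone 805 and 762. Libraries 3 and 4 alone called 658 of the 1284 genes higher (51.2%) and 633 of the 1150 lower (55.0%). The replicate number as a block gave 1389 higher and 1751 lower.

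With TG, where none of the 8 libraries is shared, the knockdown called 1301 genes higher (9.21%) and 1074 lower (7.6%), 16.8% in all. Of the 1284 genes higher without TG, 669 were also called higher with TG, 52.1% of those without and 51.4% of those with TG. Of the 1150 lower, 708 were lower in both, 61.6% and 65.9%. The difference between the 2 effects was called for 10 genes (0.0708%), 4 with a more positive effect under TG (0.0283%) and 6 with a more negative one (0.0425%). Leaving out 1 of the 16 libraries at a time gave 0 to 4 and 1 to 8 such genes. INSIG1, which retains the sterol sensor in the ER, averaged 241 ± 16.1 CPM in siMOCOS and 391 ± 56.1 CPM in siCTRL without TG, and 297 CPM in siMOCOS and 206 CPM in siCTRL with TG (difference in log2 change 1.23, adjusted p = 0.0195). SQLE, squalene epoxidase, was not called without TG, where its groups overlapped (log2 change -0.38, adjusted p = 0.0958), and had a log2 change of 1.03 with TG (difference 1.41, adjusted p = 0.0195). RDH11 rose less with TG (log2 change 0.47, difference -0.78, adjusted p = 0.0495). No member of the 8 replication, repair and mitosis lists was called for this difference.

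In LNCaP without TG, the same contrast called 829 genes higher (6.0%) and 1344 lower (9.73%), 15.7% in all. Of genes tested in both lines, 690 were lower in both, 61.3% of the 1126 lower in C4-2B and 51.4% of those lower in LNCaP, and 395 were higher in both, 32.1% of the 1232 higher in C4-2B and 49.1% of those higher in LNCaP. Median log2 changes were smaller in LNCaP, at -1.31 for mitotic regulators and -0.97 for origin genes, but the difference between lines was called for no member of the 8 lists. It was called for 23 genes (0.157%), 20 with a more positive change in C4-2B (0.137%) and 3 with a more negative one (0.0205%). The count of 20 was 9 without C4-2B siCTRL library 3, 9 without C4-2B siCTRL library 4, 9 without LNCaP siMOCOS library 3, 12 without LNCaP siCTRL library 4 and 13 without LNCaP siCTRL library 1, and the count of 3 was 9 without C4-2B siMOCOS library 4, 7 without C4-2B siCTRL library 1, and 1 without C4-2B siCTRL library 2 or LNCaP siCTRL library 4. XDH, called higher in C4-2B, averaged 3.79 CPM in siMOCOS and 4.42 CPM in siCTRL in LNCaP (log2 change -0.27, difference between lines 1.57, adjusted p = 0.00322). PLK2 rose in both lines and more in C4-2B, with log2 changes of 2.02 in C4-2B and 1.01 in LNCaP (adjusted p of the difference 0.00547). RDH11 rose by 1.24 on the log2 scale in C4-2B and 0.40 in LNCaP (0.00196), and STEAP2, a metalloreductase of prostate epithelium, had log2 changes of 0.78 in C4-2B and -0.13 in LNCaP (0.0195). UHRF1 fell more in C4-2B, by a difference of -1.11 (adjusted p = 0.0114). SLC22A3, an organic cation transporter, had 3.34, 3.62, 3.73 and 3.56 CPM in siMOCOS and 1.05, 0.975, 0.745 and 0.836 CPM in siCTRL in C4-2B, against means of 73.9 CPM in siMOCOS and 90.8 CPM in siCTRL in LNCaP (difference in log2 change 2.25, adjusted p = 0.00191).

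**Figure D5:**
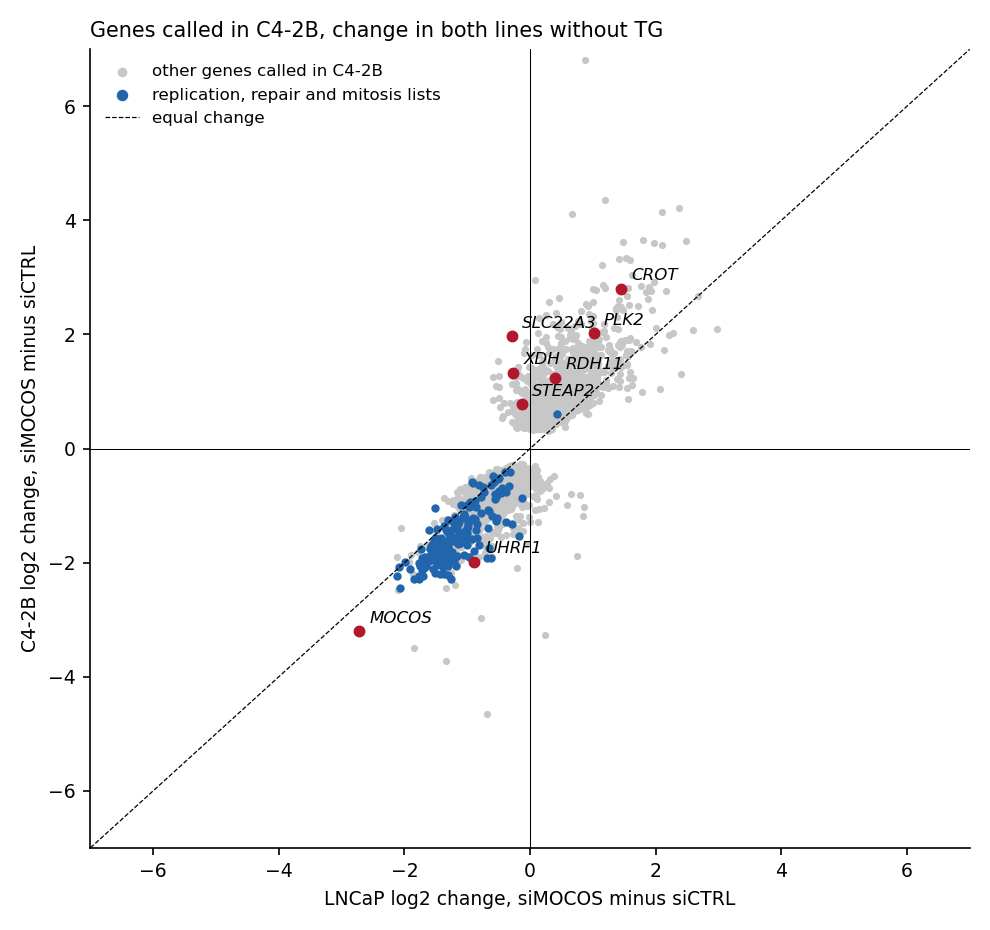
Log2 change, siMOCOS minus siCTRL without TG, in C4-2B (vertical axis) and LNCaP (horizontal axis) for the 2358 genes called in C4-2B and tested in both lines; blue points are the 179 called members of the replication, repair and mitosis lists, red points are named genes and the dashed line marks equal change. XDH, STEAP2 and SLC22A3 lie above 0 in C4-2B and below 0 in LNCaP.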

How the data were processed

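RNA-seq of 32 libraries was deposited by the authors as 1 table of 29744 genes of estimated counts, length-scaled, since 100% of values above 0 were not whole within 1e-06. Per the submitters' processing notes, which give no order, the hg38 build, Salmon 1.5.2, STAR 2.6.1d, Trim Galore 0.6.7, FastQC 0.11.9 and cutadapt 3.4 were used; the annotation is not given in the sources used here. Length scaling removes differences in transcript length between libraries from the counts, and multicopy genes depend on how Salmon divides shared reads.

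The deposited estimated counts were rounded. Libraries were grouped by line, siRNA and thapsigargin from the labels, and the knockdown columns, which do not name the siRNA, were pooled, so that libraries of 2 siRNAs stand as replicates. edgeR 4.0.16 (R 4.3.3) fitted the 16 C4-2B libraries with TMM factors, filterByExpr, which left 14127 genes tested and 15617 under the filter, and quasi-likelihood tests with Benjamini-Hochberg adjustment over all genes tested. LNCaP was fitted likewise, and the difference between lines in 1 fit of 32 libraries. SE was taken as the absolute log2 change before shrinkage over the root of the F statistic. The series describes biological replicates; p-values measure the spread between these libraries. The scripts were tested on simulated counts. Of 100 genes changed 1.5-fold, 13% were called in the right direction, and of 100 changed 3-fold, 83%. A gene not called may thus still have changed modestly. The simulated libraries varied independently around the siCTRL mean, without the pairs seen among the knockdown libraries, and only these genes were changed. The shares recovered may therefore differ in the real data. Figures used python 3.11.15, pandas 2.3.3, numpy 2.4.6 and matplotlib 3.10.9.

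Alternatives were DESeq2 1.42.0, its size factors in edgeR, limma voom 3.58.1, no filter, the 8 libraries alone, all 32 in 1 fit, knockdown columns 1 and 2 or 3 and 4 alone, the replicate number as a block, and leaving out each library. Deviations from the group mean correlated between same-numbered siMOCOS and siCTRL libraries at 0.391, 0.157, 0.354 and 0.308. The replicate number was therefore tried as a block, whereas the main fit held no block. Pairs of single libraries were not established. siMOCOS library 2 correlated more with siCTRL library 1 (0.276), and siMOCOS library 3 nearly as much with siCTRL library 4 (0.321). The labels number the knockdown libraries within each siRNA and name no siCTRL partner.

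The experiment and the gene lists were chosen with earlier results of these data known. Named genes are MOCOS, XDH and AOX1, the 12 greatest rises and 12 greatest falls among called genes of at least 5 CPM whose groups do not overlap, up to 3 called members per list and direction with the smallest adjusted p, and the 4 greatest differences per direction for the interaction and the line difference at 5 CPM or more. Other genes named were chosen after their values were seen. Promoters came from RefSeq (GRCh38.p14). Markers of red blood cells were not analysed here. Some genes are not reported here.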

Additional observations from a re-analysis of the deposited data

Results flagged for a closer look

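In groups of 4, a library was set apart where its gap to the nearest other library passed Dixon's 95% limit as a share of the group's range. Of 300 groups of named genes 13 passed, where chance gives about 1 in 20. siCTRL library 1 stood apart for ABTB2 (0.946), CDC25C (0.875), CENPU (0.856), ENO1 (0.937), EPCAM (0.868), MARS (0.879) and MCM7 (0.879). siCTRL library 2 stood apart for HEXA (0.867) and JUN (0.896), and siCTRL library 3 for MAF (0.921). siMOCOS library 1 stood apart for LIN9 (0.844), library 3 for DHRS7 (0.88) and library 4 for CHAC1 (0.873). CHAC1, a glutathione-degrading ATF4 target, had 0.862, 1.04, 0.988 and 2.29 CPM in siMOCOS, against 3.78, 4.7, 7.38 and 6.46 CPM in siCTRL.

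The change in C4-2B differed from that in LNCaP by edgeR's test of the difference (C4-2B minus LNCaP, log2) for the following named genes. The difference was positive for SLC22A3 (2.25, adjusted p = 0.00191), SLC25A27 (1.68, 0.00299), XDH (1.57, 0.00322), RLN2 (1.45, 0.0365), C7orf63 (1.36, 0.0195), STX19 (1.34, 0.0357), RP11-279F6.1 (1.302, 0.0243), PLK2 (1.00, 0.00547), STEAP2 (0.90, 0.0195) and RDH11 (0.83, 0.00196). It was negative for UHRF1 (-1.11, adjusted p = 0.0114), FAM102A (-1.01, 0.0195) and ABTB2 (-0.83, 0.0387).

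The change with TG differed from that without (with minus without, log2) for LOC102724951 (7.25, adjusted p = 0.0495), SQLE (1.41, 0.0195), INSIG1 (1.23, 0.0195) and ADAMTS1 (1.05, 0.0459), and in the negative direction for DDR2 (-1.54, 0.0471), LOC101060376 (-1.35, 0.0471) and RDH11 (-0.78, 0.0495). DDR2, a collagen receptor, had 10.9, 10.9, 10.2 and 9.06 CPM in siMOCOS, against 3.32, 5.14, 3.25 and 2.35 CPM in siCTRL, without overlap, and a log2 change of 0.02 with TG.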

How the results depend on the processing

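No named gene that was called changed sign under any alternative run, but the balance of calls turned: fewer genes were called higher than lower with the block (1389 and 1751), with the 8 libraries alone (1099 and 1194) and with no filter (1046 and 1068), against 1284 and 1150. Of 150 named genes, 109 were called under every alternative and 37 lost their call under at least 1. Counts for the knockdown without TG moved by over 1.5 times with knockdown columns 3 and 4 alone (805 higher, 762 lower) and with the replicate number as a block, fitted on the 8 libraries (1751 lower). Leaving out single libraries gave 908 to 1272 higher and 829 to 1040 lower. The interaction with TG gave 3 genes lower by limma voom and 2 with no filter, and 1 to 8 lower and 0 to 4 higher as libraries were left out. The difference between lines gave 10 higher with no filter, and 9 to 28 higher and 1 to 9 lower as libraries were left out. The knockdown with TG gave 861 to 1361 higher, lowest without siMOCOS TG library 1. LNCaP gave 496 to 828 higher, 496 without siMOCOS library 2 and 525 without siCTRL library 4. The cause of these changes was not tested. Apart from the counts given in the report, the block moved no other list count there by over 1.5 times among those recomputed. The siCTRL libraries 2 to 4 were shallower, at 12.4M to 14.7M counts, which limits genes of few counts such as AOX1.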
